A study of Homo sapiens with 40 samples.

Results

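The SORL1 knockout (SORL1-KO) and the SORL1 missense variant A528T (SORL1-A528T) were compared directly with each other in human microglia-like cells (hMGLs), stem-cell derivatives that model the macrophages of the brain. The comparison took the 14 RNA libraries of these lines, 7 of SORL1-KO and 7 of SORL1-A528T, out of 40 in the series, and libraries with the same replicate number were treated as pairs. Of 60504 genes in the deposited table, the 13400 with at least 1 TPM (the share of transcripts, scaled so that each library has the same total) in at least 7 of the 14 libraries were tested on the scale of log2(TPM + 1). A gene is called where its adjusted p was below 0.05, and every difference is SORL1-KO minus SORL1-A528T.

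Both lines were made by CRISPR/Cas9 editing of the established human embryonic stem cell line H9, with a guide RNA and a single-stranded repair template, followed by isolation of clones by cell sorting. The labels describe all edits of the series as homozygous and name the SORL1 edits as R744X, which puts a stop codon in place of an arginine, and A528T, which puts a threonine in place of an alanine. They call the knockout samples SORL1-KO and name no other knockout edit of SORL1. Each line was taken through haematopoietic progenitors and then differentiated for 28 days with IL-34, TGF-beta 1 and M-CSF, with CD200 and CX3CL1 added for the last 3 days, and this also holds for the unedited WT cells whose levels are given as context (7 libraries). The sources used here give neither the number of clones behind a line nor whether replicates are separate differentiations. The p-values therefore speak only for the spread over these libraries, part of which may be technical, and a difference between the edits cannot be told apart from a difference between the clones.

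SORL1 encodes a sorting receptor of the VPS10-domain family that works with the retromer complex in endosomes, where it steers cargo such as the amyloid precursor protein back towards the Golgi and the cell surface. Variants that truncate or alter it are associated with Alzheimer's disease. Microglia express it together with a dense endosomal and lysosomal system, which they use to break down what they engulf.

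The reference sequence around the codon edited in A528T is shown because this substitution is what defines that line. Capitals mark the edited codon, GCC, with 30 bases of coding sequence on each side. It was read from the SORL1-201 transcript of GENCODE 29, on the + strand of chromosome 11 of GRCh38, whose protein has 2214 residues. The codon lies in exon 11 at chr11:121522975-121522977, and the stretch shown around it ends in exon 12. TPM sums reads over the whole gene, so that it does not show the edits themselves.
A528T: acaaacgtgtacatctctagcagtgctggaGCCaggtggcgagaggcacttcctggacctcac

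SORL1, the edited gene, was lower in SORL1-KO in every pair but was not absent there. It had 12.6, 15.99 and 21.5 TPM (lowest, median and highest library) in SORL1-KO, against 22.1, 41.4 and 60.7 TPM in SORL1-A528T. The groups did not overlap, although replicates 5 and 6 of SORL1-A528T, at 22.7 and 22.1 TPM, lay just above the highest SORL1-KO library. The difference on the log2 scale was -1.20 with a standard error of 0.11 (limma, adjusted p = 0.000525). A two-sided exact sign-flip permutation test over the 7 pairs gave p = 0.0156, which is the smallest value that 128 sign patterns allow. WT cells averaged 33.3 ± 9.74 TPM (SD, n = 7).

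APOE, the main apolipoprotein secreted by microglia and the gene that the title of the series names, was not called between the lines. It had 3575, 4456 and 5714 TPM in SORL1-KO, against 2468, 4092 and 4830 TPM in SORL1-A528T. The groups overlapped over most of their range, and SORL1-KO was the higher library in 5 of 7 pairs. The difference was 0.27 with a standard error of 0.09 (limma, adjusted p = 0.304), and the exact sign-flip permutation test gave p = 0.0625. APOE averaged 4494 ± 839 TPM in SORL1-KO, 3783 ± 935 TPM in SORL1-A528T and 2669 ± 982 TPM in WT (SD, n = 7 each). Against WT, SORL1-KO had 0.80 and was called (limma, adjusted p = 0.00058). SORL1-A528T had 0.53 against WT and was not called (limma, adjusted p = 0.0572).

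**Figure D1:**
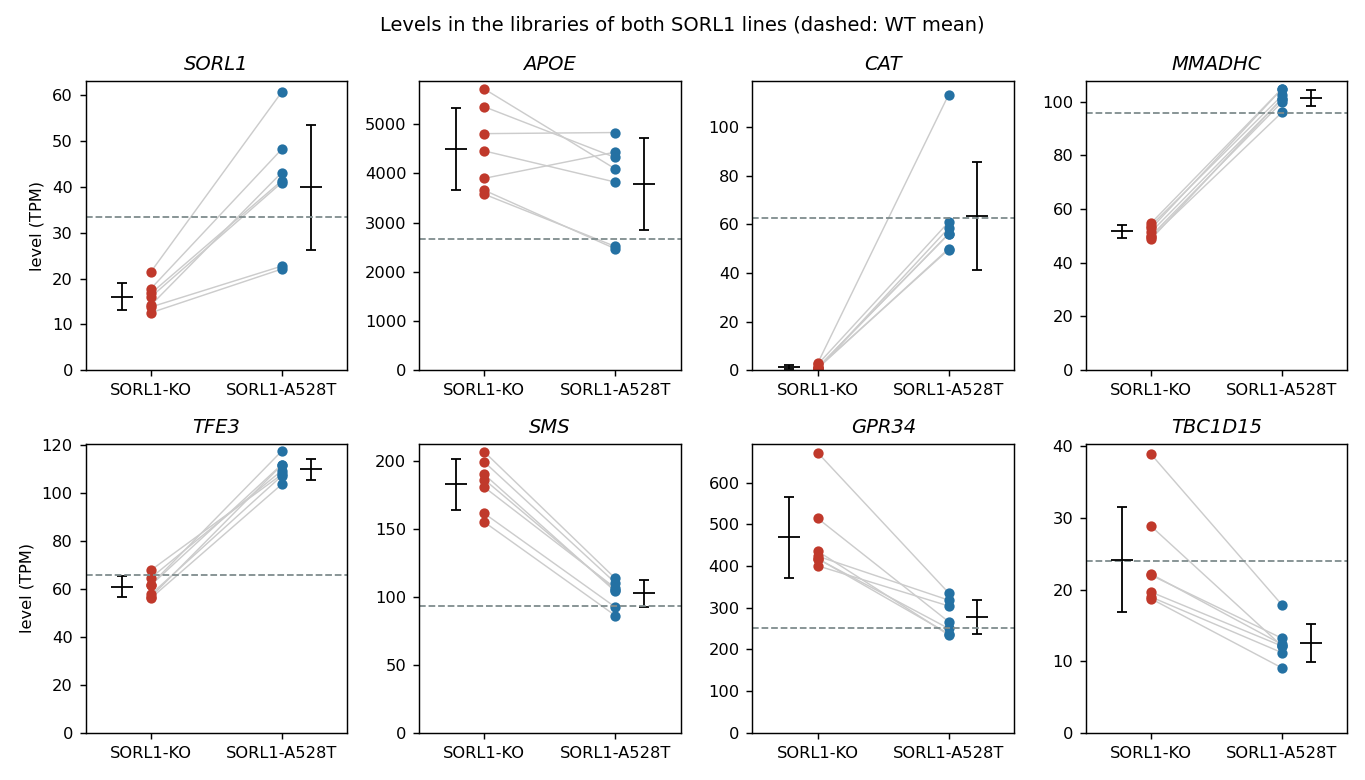
Levels in TPM of 8 genes in the 7 SORL1-KO libraries (left) and the 7 SORL1-A528T libraries (right), with grey lines joining libraries of the same number, bars for the mean and SD, and a dashed line for the WT mean. SORL1, CAT, MMADHC and TFE3 were lower and SMS, GPR34 and TBC1D15 higher in SORL1-KO with no overlap between the lines, while APOE overlapped.

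Across all genes, few differences between the lines were called. Of 13400 genes tested, 93 were called (0.694%), 31 higher (0.231%) and 62 lower (0.463%) in SORL1-KO. At that share most of the gene lists described below would hold no call. A list without calls is therefore not shown to be unchanged. The differences were mostly small: the median called gene differed by 0.51 on the log2 scale in absolute value, 55 of the 93 differed by less than 1.5-fold, and 7 differed by 2-fold or more, 1 of them higher and 6 lower. Of the called genes, 92 went the same way in all 7 pairs, against 500 of all genes tested (3.73%), of which 199 were higher (1.49%) and 301 lower (2.25%), and 16 had no overlap between the lines, 5 higher and 11 lower, against 20 of all genes tested (0.149%), 7 higher (0.0522%) and 13 lower (0.097%). Such agreement of the pairs is largely built into the calls, because the fit with the block favours genes with steady differences within pairs. By annotation 88 of the 93 are protein coding, and 1385 genes had an unadjusted p below 0.05.

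The count of calls leaned on the pairing and on single pairs. Without the replicate block 12 genes were called, 2 higher and 10 lower (0.0896%), and all 12 were among the 93. These were SORL1, CAT, ZNF717, MMADHC, SMS, GPR34, LINC01356, LINC01357, SASH3, SLC35A2, GRIPAP1 and TFE3, so that every other gene described below as called lost its call without the block. Leaving out pairs 1 to 7 in turn gave 41, 64, 64, 144, 39, 38 and 35 calls, and averaging the closely alike libraries 5 and 6 of each line gave 41. Of the 93 genes, 31 were called in every one of the 7 fits that left out a pair, 20 lower and 11 higher. For 9 genes the call held in all 22 settings, and these were CAT, LINC01357, SORL1, MMADHC, SLC35A2, TFE3, SASH3, GPR34 and SMS. LINC01356 and ZNF717 were called in 21 settings, which are all those that tested them. A filter of 5 TPM in at least 7 libraries left both out of the remaining setting.

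**Figure D2:**
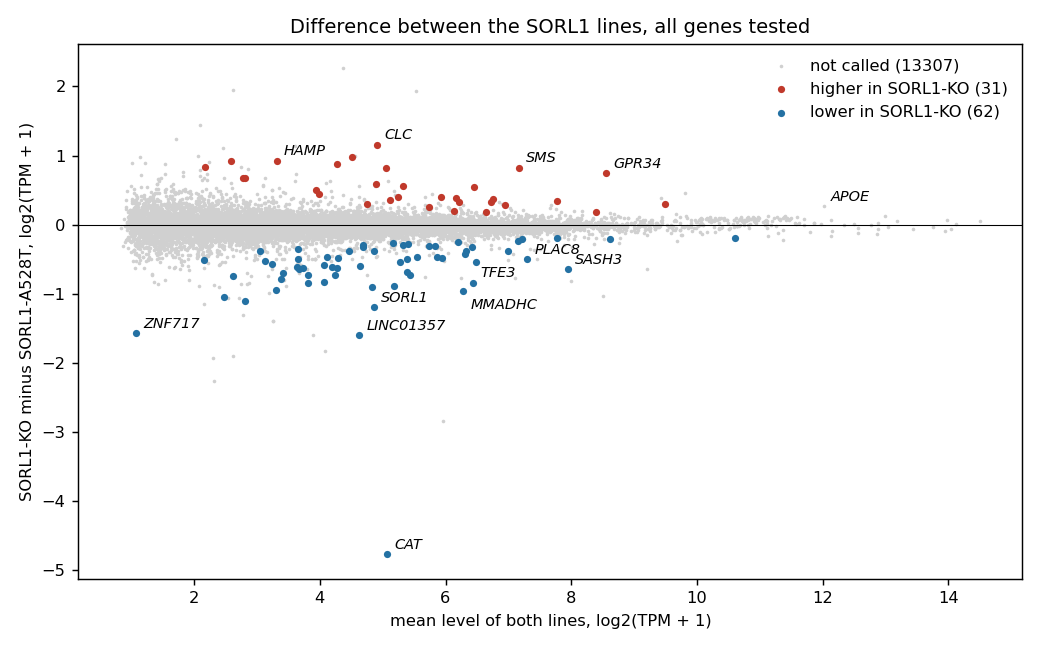
Difference between the lines, SORL1-KO minus SORL1-A528T, against the mean level of both lines, each on the scale of log2(TPM + 1), for the 13400 genes tested. Red points are the 31 genes called higher and blue points the 62 called lower in SORL1-KO, and CAT stands alone at -4.78.

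The libraries within each line varied along a shared direction. The first component of the deviations from the line means held 50.5% of them and set apart replicate 7 of both lines and replicate 4 of SORL1-KO. The mean log2 level of 16 stromal and endothelial markers was between 1.01 and 2.57 in SORL1-KO and between 1.08 and 2.30 in SORL1-A528T, highest in replicate 4 of both. None of the 8 such markers that could be tested was called. With pairs 4 and 7 left out 88 genes were called, 45 of them among the 93. The part of these libraries in the counts was not tested further.

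The cells of both lines carried the markers of microglia and macrophages. All 15 listed markers were tested, and 1 was called, GPR34, which was higher. AIF1, a calcium-binding protein of macrophages, averaged 1091 TPM in SORL1-KO and 1094 TPM in SORL1-A528T, and SPI1, the transcription factor that specifies the myeloid lineage, averaged 828 TPM in SORL1-KO and 872 TPM in SORL1-A528T. P2RY12, a purine receptor of homeostatic microglia, averaged 37.0 TPM in SORL1-KO and 35.8 TPM in SORL1-A528T. TMEM119, a membrane protein of microglia, averaged 4.51 TPM in SORL1-KO and 2.98 TPM in SORL1-A528T and was not called (limma, adjusted p = 0.246). No gene was called in the marker lists of other cells, many of whose genes were too low to test. Tested were 5 of 8 listed markers of border-associated macrophages, 8 of 10 of monocytes and 1 of 8 of neutrophils. For mast cells and basophils 6 of 8 were tested, for haematopoietic progenitors 3 of 9, and for erythroid cells and megakaryocytes 2 of 13. For lymphoid cells 4 of 11 were tested, for stromal and endothelial cells 8 of 16, for pluripotent cells 1 of 8 and for neural cells 3 of 12. With 0.694% of all genes called, no call is the usual outcome for lists this short. In bulk RNA, fewer cells of a type and less RNA per cell cannot be told apart.

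The gene with the largest difference was CAT, which encodes catalase, the peroxisomal enzyme that breaks down hydrogen peroxide. It had 0.51, 1.07 and 2.93 TPM in SORL1-KO, against 49.7, 56.1 and 113 TPM in SORL1-A528T. Every SORL1-KO library was below 3 TPM and every SORL1-A528T library far above, with the highest value in replicate 7 of SORL1-A528T. The difference was -4.78 with a standard error of 0.11 (limma, adjusted p = 7.69e-09), lower in 7 of 7 pairs, and it stayed between -4.87 and -4.69 when any pair was left out. WT cells averaged 62.6 ± 7.59 TPM (SD, n = 7), close to the mean of SORL1-A528T, 63.5 TPM, and far from that of SORL1-KO, 1.39 TPM. Of the 25 antioxidant enzyme genes tested CAT was the only one called, and the median of that list was -0.02, against -0.01 over all genes.

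The 300 bases around the start of CAT are given because the transcript of this gene was nearly missing in SORL1-KO. They come from RefSeq (GRCh38.p14), chr11:34438684-34438983 on the + strand, 250 bases before to 50 after the start. Capitals mark the CG dinucleotides, of which there are 20, against a median of 26 in the promoters of the 9916 tested genes that have an entry. DNA methylation and chromatin were not measured in these libraries.
CAT promoter: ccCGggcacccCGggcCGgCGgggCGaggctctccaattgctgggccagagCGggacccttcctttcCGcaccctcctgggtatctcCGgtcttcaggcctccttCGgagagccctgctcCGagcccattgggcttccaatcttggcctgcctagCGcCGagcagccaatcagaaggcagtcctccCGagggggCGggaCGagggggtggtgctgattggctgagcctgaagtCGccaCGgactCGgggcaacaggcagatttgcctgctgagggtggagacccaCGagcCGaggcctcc

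ZNF717, a zinc finger gene that falls outside the rule for named genes because of its low level and is added after its values were seen, was the other gene close to 0 in SORL1-KO. It had 0.00, 0.06 and 0.12 TPM in SORL1-KO, against 1.46, 2.25 and 2.98 TPM in SORL1-A528T, with no overlap (-1.57, limma, adjusted p = 0.000194). Its WT mean was 1.85 TPM. Both CAT and ZNF717 thus had SORL1-A528T levels near WT.

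Next in significance stood a pair of metabolic genes with tight groups. MMADHC, which encodes a protein that directs vitamin B12 to its enzymes in the cytosol and mitochondria, had 48.9, 51.5 and 54.8 TPM in SORL1-KO, against 96.0, 101.1 and 105 TPM in SORL1-A528T. The groups lay far apart, the difference was -0.96 with a standard error of 0.03 (limma, adjusted p = 2.56e-07), and WT averaged 95.9 TPM. SMS, which encodes spermine synthase, the last enzyme of polyamine synthesis, went the other way, with 155, 186 and 207 TPM in SORL1-KO, against 86.3, 105 and 114 TPM in SORL1-A528T. Its lowest SORL1-KO library was above the highest SORL1-A528T library, and the difference was 0.82 with a standard error of 0.03 (limma, adjusted p = 2.76e-07). WT averaged 93.5 TPM for SMS. SMS was the only gene called of 15 in polyamine metabolism, whose median was -0.06.

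Among homeostatic microglial genes 2 of 24 tested were called, both higher, against 0.694% of all genes called in either direction. The list's median was 0.02, or -0.04 without pairs 4 and 7. GPR34, a receptor for lysophosphatidylserine, had 401, 424 and 672 TPM in SORL1-KO, against 235, 267 and 336 TPM in SORL1-A528T. The lines did not overlap, and replicate 7 was the highest library in each. The difference was 0.74 with a standard error of 0.08 (limma, adjusted p = 0.00144), and WT averaged 252 TPM. SLC2A5, the fructose transporter GLUT5 that marks microglia in the brain, had 31.8, 47.5 and 59.5 TPM in SORL1-KO, against 18.9, 32.4 and 39.0 TPM in SORL1-A528T. Here the ranges overlapped, and all 7 pairs were higher (0.56, limma, adjusted p = 0.00507). GPR82, the receptor gene next to GPR34, was also called (0.54, limma, adjusted p = 0.0299), and in 2 of the 7 fits that left out a pair. It was named after its values were seen. Both GPR34 and GPR82 lie inside CASK on the opposite strand, and the sources do not state whether counting used strand.

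CYP27A1, which encodes the mitochondrial sterol 27-hydroxylase, had 21.8, 41.8 and 59.5 TPM in SORL1-KO, against 11.2, 25.2 and 32.4 TPM in SORL1-A528T. The lines overlapped, and all 7 pairs were higher, the least by 0.25 on the log2 scale in replicate 3 (mean 0.82, limma, adjusted p = 0.0128). Its adjusted p was 0.0504 without replicate 5 and 0.0551 without replicate 6. MSR1, the class A scavenger receptor that takes up modified lipoproteins and amyloid, had 25.5, 32.9 and 49.9 TPM in SORL1-KO, against 15.0, 23.7 and 31.0 TPM in SORL1-A528T. The lines overlapped, and all 7 pairs were higher (0.58, limma, adjusted p = 0.0113), as in nearly all genes called with the block. MSR1 was the only call among 28 genes of disease-associated microglia, whose median was 0.00.

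No gene of cholesterol synthesis and uptake was called of 23 tested, nor of apolipoproteins and cholesterol efflux of 18, with medians of 0.01 and -0.02. The cholesterol synthesis median was 0.11 without pairs 4 and 7, where 21 of 23 genes lay above 0, and -0.03 with the stromal score as a covariate, where 15 of 23 lay below 0. APOC1, an apolipoprotein gene beside APOE, averaged 1012 ± 178 TPM in SORL1-KO and 776 ± 261 TPM in SORL1-A528T (SD, n = 7 each; 0.45, limma, adjusted p = 0.396). The readthrough gene APOC4-APOC2 was called (0.30, limma, adjusted p = 0.0102), with 561 to 1016 TPM in SORL1-KO, against 426 to 796 TPM in SORL1-A528T. It overlaps APOC2, with means of 58.6 TPM in SORL1-KO and 54.5 TPM in SORL1-A528T, and APOC4, with means of 2.47 TPM in SORL1-KO and 2.17 TPM in SORL1-A528T, on the same strand. Neither of these was called, and the split of reads between the 3 genes is uncertain. OLR1, the lectin-like receptor for oxidised LDL, was called as well (0.34, limma, adjusted p = 0.0287), in the full comparison and in 4 of the 7 fits that left out a pair. OLR1 and APOC4-APOC2 were added after their values were seen.

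HAMP, which encodes hepcidin, the peptide hormone that closes the iron exporter ferroportin, was higher in SORL1-KO. It had 8.34, 12.5 and 14.2 TPM in SORL1-KO, against 2.92, 5.91 and 9.77 TPM in SORL1-A528T. Only replicate 7 of SORL1-KO lay within the range of SORL1-A528T (0.93, limma, adjusted p = 0.0105). WT averaged 4.11 TPM. It was the only call among 14 iron genes, and FTH1, the ferritin heavy chain, averaged 5855 TPM in SORL1-KO and 5749 TPM in SORL1-A528T.

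Of 21 genes of the retromer and its cargo adaptors none was called, with differences between -0.11 and 0.10 and a median of 0.02. None of 23 genes of the WASH, CCC and ESCRT complexes was called either (median 0.01), nor any of 26 endosome genes (median -0.03). With 0.694% of all genes called, lists of this size would mostly hold no call. With the other scalings, with the stromal score as a covariate and without pairs 4 and 7 these medians lay between -0.03 and 0.04. SORT1, the sorting receptor sortilin of the same family as SORL1, averaged 46.9 ± 11.2 TPM in SORL1-KO and 43.7 ± 6.78 TPM in SORL1-A528T (SD, n = 7 each; 0.08, limma, adjusted p = 0.748). SORCS1 was near 1 TPM in both lines, and SORCS3 was listed at 0 in all 14 libraries. These values describe RNA and carry nothing on the location of the proteins.

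TBC1D15, a GTPase-activating protein for RAB7 at late endosomes, lysosomes and mitochondria, had 18.7, 22.01 and 38.9 TPM in SORL1-KO, against 9.07, 12.1 and 17.9 TPM in SORL1-A528T. The lines did not overlap (0.87, SE 0.07, limma, adjusted p = 0.000443), although the adjusted p was 0.0972 without the replicate block. WT averaged 24.1 ± 3.62 TPM (SD, n = 7), so that it was SORL1-A528T that lay apart from WT. RAB27A, a GTPase of secretory lysosomes, had 3.81, 8.98 and 13.2 TPM in SORL1-KO, against 6.92, 13.4 and 26.8 TPM in SORL1-A528T (-0.64, limma, adjusted p = 0.0416). It was called in 1 of the 7 fits that left out a pair, that without replicate 2, with adjusted p between 0.0192 and 0.152, and it overlaps PIGBOS1 on the same strand. Of 29 RAB genes it was the only call.

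The amyloid list held 1 call among 16 genes tested. BACE2, a protease related to the beta-secretase BACE1, had 4.99, 6.91 and 10.4 TPM in SORL1-KO, against 2.56, 4.34 and 6.46 TPM in SORL1-A528T. It was higher in all 7 pairs with overlapping ranges (0.68, limma, adjusted p = 0.0287). That p was between 0.0399 and 0.0837 with a pair left out and above 0.05 without replicate 2, 3, 5, 6 or 7. Among 38 genes at Alzheimer risk loci SORL1 was the only call, and the list's median was 0.02, or -0.02 without pairs 4 and 7.

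The other genes edited elsewhere in the series were not called between the SORL1 lines. TREM2, the lipid-sensing receptor of microglia, averaged 560 TPM in SORL1-KO and 519 TPM in SORL1-A528T (0.11, limma, adjusted p = 0.34). CD33, an inhibitory sialic acid receptor, averaged 47.1 TPM in SORL1-KO and 55.9 TPM in SORL1-A528T (-0.23, limma, adjusted p = 0.28). INPP5D, the inositol phosphatase SHIP1, averaged 120 TPM in SORL1-KO and 121 TPM in SORL1-A528T (-0.01, limma, adjusted p = 0.96). In SORL1-KO, TREM2 was higher in 6 of 7 pairs, CD33 lower in 7 of 7 and INPP5D lower in 4 of 7.

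TNF, the central inflammatory cytokine, had 2.57, 10.1 and 14.6 TPM in SORL1-KO, against 4.57, 11.0 and 23.8 TPM in SORL1-A528T (-0.50, limma, adjusted p = 0.0461). CCL22, a chemokine that draws regulatory T cells, had 4.82, 35.5 and 70.0 TPM in SORL1-KO, against 6.43, 56.5 and 112 TPM in SORL1-A528T (-0.47, limma, adjusted p = 0.0482). Both overlapped widely between the lines and were lower in 7 of 7 pairs, and each was called in 1 of the 7 fits that left out a pair, TNF without replicate 2 and CCL22 without replicate 5. They were the only calls of 17 cytokine and chemokine genes, against 0.694% of all genes called. Of these 17 genes 15 lay below 0, with a median of -0.22, or -0.13 without pairs 4 and 7. CCL2, a monocyte chemoattractant, was lower in all 7 pairs without passing (-0.77, limma, adjusted p = 0.455). The monocyte markers beside them had a median of -0.27 over 8 tested and none called, with a summed level of 166 to 768 TPM in SORL1-KO and 192 to 1516 TPM in SORL1-A528T, and their part in these results was not tested.

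The S100 calcium-binding genes had 2 calls among 11 tested, both lower, and a median of -0.35. Over all genes 0.694% were called and the median was -0.01. The lists were chosen with earlier results known, so that no excess can be read from this count. That median was -0.24 without pairs 4 and 7 and -0.19 with the stromal score as a covariate. S100A10, the partner of annexin A2 at the membrane, had 49.5, 69.7 and 93.9 TPM in SORL1-KO, against 58.9, 105 and 148 TPM in SORL1-A528T (-0.54, limma, adjusted p = 0.019). Its adjusted p was above 0.05 without replicate 1, 5, 6 or 7, at most 0.074. S100A4, a cytoskeletal regulator of motile cells, had 1061, 1442 and 1738 TPM in SORL1-KO, against 1365, 1621 and 1978 TPM in SORL1-A528T (-0.20, limma, adjusted p = 0.0384). That call was lost without replicate 2, 3, 5, 6 or 7, with adjusted p up to 0.148. S100A8 and S100A9, the calprotectin subunits of monocytes and neutrophils, had -0.77 and -0.82 and were not called, with adjusted p of 0.284 and 0.341 by limma.

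In the phagocytosis and complement list 3 of 26 genes were called, against 0.694% of all genes. MSR1, given above, and C5AR1 were higher, and CFP was lower. C5AR1, the receptor for the complement fragment C5a, had 45.5, 62.5 and 159 TPM in SORL1-KO, against 33.0, 55.3 and 105 TPM in SORL1-A528T (0.38, limma, adjusted p = 0.0416). It was called in 1 of the 7 fits that left out a pair, that without replicate 3, with adjusted p between 0.0218 and 0.14. CFP, which encodes properdin, the stabiliser of the alternative complement pathway, had 3.25, 4.66 and 21.6 TPM in SORL1-KO, against 4.98, 8.64 and 32.6 TPM in SORL1-A528T (-0.70, limma, adjusted p = 0.0372). Replicate 7 was the highest library of CFP in both lines, and the call held without replicate 4 or 5, while without the others the adjusted p was between 0.066 and 0.116.

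CLEC10A, a galactose-type lectin of macrophages and dendritic cells, had 23.1, 28.3 and 48.9 TPM in SORL1-KO, against 39.4, 44.3 and 91.9 TPM in SORL1-A528T (-0.68, limma, adjusted p = 0.00336). CD1A and CD1B, which present lipid antigens, had -0.63 and -0.62 (limma, adjusted p = 0.0232 and 0.0074). All 3 were added after their values were seen, and CD1A was called in 3 of the 7 fits that left out a pair, against all 7 for CLEC10A and CD1B. None of 14 genes of MHC class II presentation was called, 11 of which lay below 0, with a median of -0.12. Without replicate 4, 5 of these genes were called, and without pairs 4 and 7, 4 were called and all 14 lay below 0, with a median of -0.20.

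CLC, which encodes galectin-10 of eosinophils and basophils, had the largest positive difference. It had 10.6, 55.8 and 67.0 TPM in SORL1-KO, against 7.21, 16.7 and 28.9 TPM in SORL1-A528T. Replicates 4 to 7 of SORL1-KO lay between 55.8 and 67.0 TPM and replicates 1 to 3 below 20 TPM, within the range of SORL1-A528T (1.16, SE 0.18, limma, adjusted p = 0.0287). The adjusted p was above 0.05 without replicate 1, 4, 5, 6 or 7, at most 0.105. Of 6 mast cell and basophil markers tested 4 lay above 0 and none was called, with a median of 0.60 and a summed level of 6.07 to 42.2 TPM in SORL1-KO, against 6.21 to 42.5 TPM in SORL1-A528T. CPA3, the mast cell carboxypeptidase, was higher in all 7 pairs without passing (0.83, limma, adjusted p = 0.0605). The part of these markers in the difference of CLC was not tested.

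Among the other large positive differences, PDPN, the mucin-like glycoprotein podoplanin, had 21.3, 25.3 and 41.5 TPM in SORL1-KO, against 6.34, 15.4 and 23.3 TPM in SORL1-A528T (0.98, limma, adjusted p = 0.0461). SYNDIG1, a membrane protein first known from synapses, had 4.59, 6.99 and 8.70 TPM in SORL1-KO, against 1.92, 3.38 and 5.39 TPM in SORL1-A528T (0.92, limma, adjusted p = 0.019). LRRC39, a leucine-rich repeat gene, had 3.66, 7.06 and 15.8 TPM in SORL1-KO, against 2.14, 3.60 and 9.00 TPM in SORL1-A528T (0.68, limma, adjusted p = 0.0461). All of them were higher in 7 of 7 pairs with overlapping ranges. The call of LRRC39 was lost without any one pair (adjusted p between 0.0727 and 0.139), and those of PDPN and SYNDIG1 held without replicate 3 or 4 and were lost without each of the others (up to 0.139 for PDPN and 0.0628 for SYNDIG1).

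**Figure D3:**
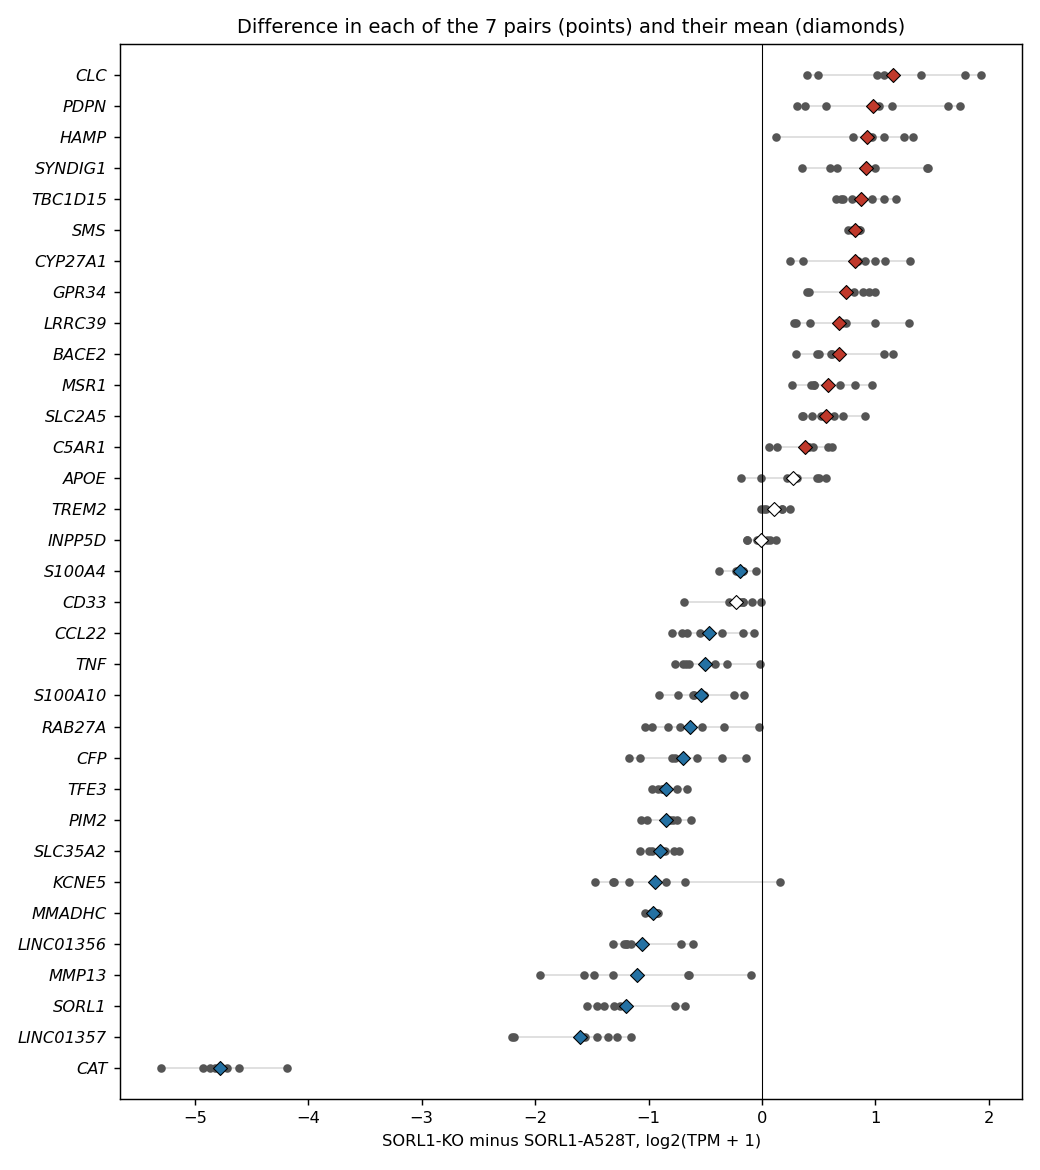
Difference in log2(TPM + 1), SORL1-KO minus SORL1-A528T, for the named genes shown in each of the 7 pairs (points), with the mean as a diamond that is red where the gene was called higher, blue where it was called lower and white where it was not called. SMS and MMADHC had nearly the same difference in every pair, and KCNE5 had 1 pair on the other side of 0.

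On the lower side, the long non-coding RNAs LINC01357 and LINC01356 stood together on chromosome 1. LINC01357 had 7.05, 11.8 and 12.6 TPM in SORL1-KO, against 19.6, 31.8 and 58.2 TPM in SORL1-A528T (-1.60, limma, adjusted p = 0.000308). LINC01356 had 1.94, 2.51 and 3.43 TPM in SORL1-KO, against 4.17, 6.21 and 9.14 TPM in SORL1-A528T (-1.05, limma, adjusted p = 0.00137). Neither overlapped between the lines, and the pair kept its call without any one replicate. The genes overlap only at their ends, on opposite strands, and if counting ignored strand, reads from that overlap cannot be told apart.

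MMP13, a collagenase, had 0.22, 1.19 and 8.37 TPM in SORL1-KO, against 0.90, 3.25 and 23.8 TPM in SORL1-A528T (-1.10, limma, adjusted p = 0.0422). Replicates 5 and 6 were the highest and replicate 7 the lowest in both lines, and within pairs SORL1-KO was always the lower. Its call held without replicate 3 and was lost without each of the others, with adjusted p up to 0.156. KCNE5, a subunit that modulates potassium channels, had 1.57, 6.32 and 11.4 TPM in SORL1-KO, against 3.71, 6.59 and 29.6 TPM in SORL1-A528T (-0.95, limma, adjusted p = 0.0416), and was lower in 6 of 7 pairs. The call of KCNE5 held without replicate 4 and was lost without each of the others (up to 0.153), and the gene overlaps ACSL4 on the same strand.

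Calls were denser on the X chromosome than elsewhere. Of 425 genes tested there 13 were called (3.06%), 3 higher and 10 lower, against 80 of 12975 on other chromosomes or without a position (0.617%). The median difference on the X chromosome was 0.00. Of the 9 genes called in all 22 settings, SLC35A2, TFE3, SASH3, GPR34 and SMS lie there.

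A run of 5 genes that are neighbours among those tested, SLC35A2, PIM2, OTUD5, GRIPAP1 and TFE3, was lower throughout. The run spans chrX:48903180-49043486 (GRCh38), and its differences were between -0.90 and -0.50. The 5 tested genes on its left had differences between -0.19 and 0.01, and the 5 on its right between -0.08 and 0.07. No other run of called neighbours was longer than 2 genes. The genes were set in order after their values were seen.

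TFE3, a transcription factor of lysosome and autophagy genes, had 56.2, 61.7 and 67.9 TPM in SORL1-KO, against 104, 109 and 118 TPM in SORL1-A528T. The groups were tight and apart (-0.84, SE 0.04, limma, adjusted p = 5.99e-06). WT averaged 66.0 ± 3.27 TPM (SD, n = 7). TFE3 was the only call among 44 genes of the lysosome list, whose other members had differences between -0.29 and 0.15. The median of the lysosome list was -0.03, with 29 of 44 genes below 0. It was -0.08 without pairs 4 and 7, with 35 below 0, and 0.01 with the stromal score as a covariate, with 20 below 0. None of 32 autophagy genes was called (median -0.03, or -0.09 without pairs 4 and 7).

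SLC35A2, which carries UDP-galactose into the Golgi, had 13.7, 19.3 and 22.3 TPM in SORL1-KO, against 29.96, 35.7 and 40.4 TPM in SORL1-A528T (-0.90, limma, adjusted p = 2.03e-05). PIM2, a survival kinase of blood cells, had 5.21, 7.82 and 19.1 TPM in SORL1-KO, against 11.3, 13.1 and 35.4 TPM in SORL1-A528T (-0.84, limma, adjusted p = 0.000247). SLC35A2 did not overlap between the lines, and PIM2 overlapped through replicates 4 and 7 of SORL1-KO, at 11.9 and 19.1 TPM. The WT means of 21.2 TPM for SLC35A2 and 7.54 TPM for PIM2 lay near those of SORL1-KO.

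GRIPAP1, a regulator of recycling endosomes, and OTUD5, a deubiquitinase, completed the run with -0.72 and -0.50 (limma, adjusted p = 0.00459 and 0.0377), and both were named after their values were seen. The call of OTUD5 was made in 1 of the 7 fits that left out a pair, whereas the others of the run kept theirs in all 7. SASH3, an adaptor of lymphocytes and myeloid cells farther along the X chromosome, had 167, 187 and 209 TPM in SORL1-KO, against 250, 267 and 396 TPM in SORL1-A528T, with no overlap (-0.65, limma, adjusted p = 0.00126). It was added after its values were seen.

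**Figure D4:**
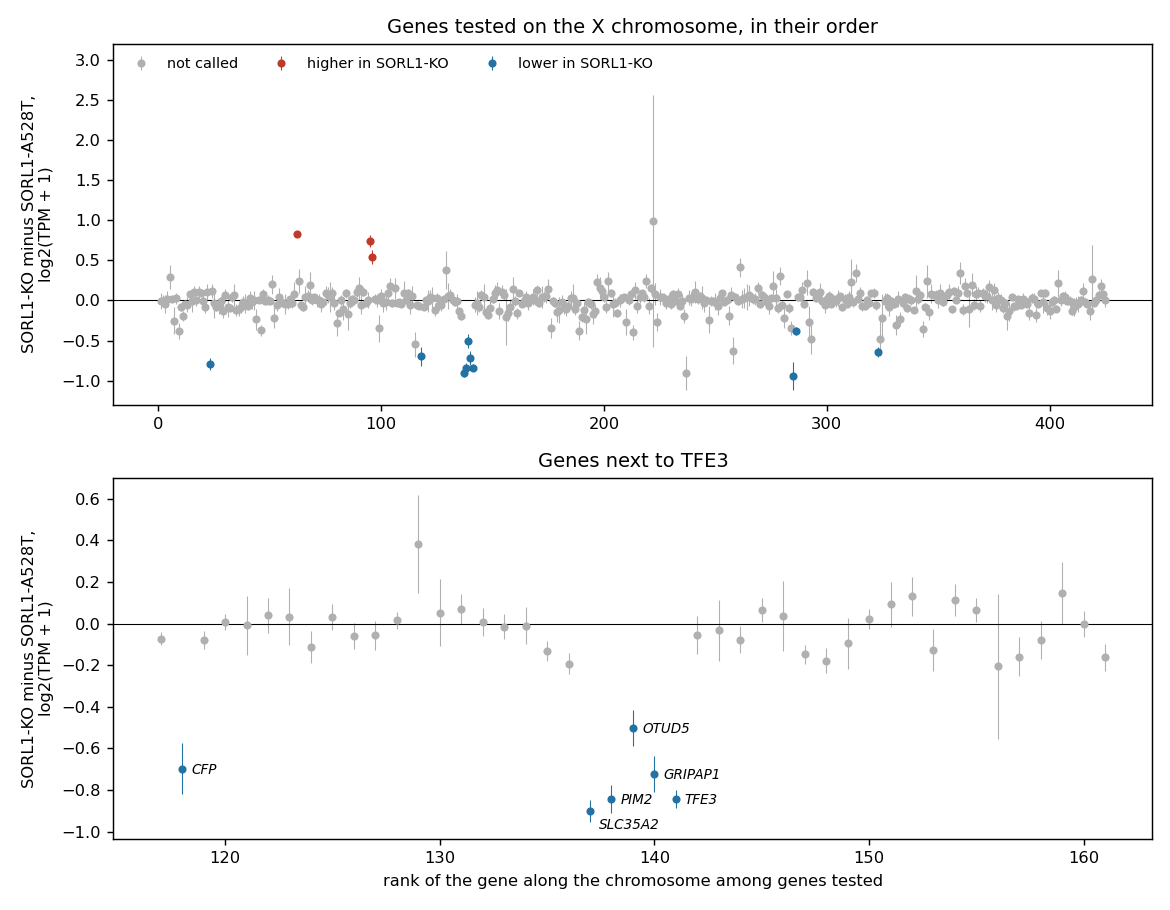
Difference, SORL1-KO minus SORL1-A528T on log2(TPM + 1) with its standard error, for the 425 genes tested on the X chromosome in their order (top) and for those next to TFE3 (bottom), red where called higher, blue where called lower and grey where not called. SLC35A2, PIM2, OTUD5, GRIPAP1 and TFE3 stand together between -0.90 and -0.50, and their neighbours lie near 0.

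Both lines were also set beside WT, with the limit that both such comparisons share the 7 WT libraries. In a fit of the 21 libraries with the replicate block, 70 of the 93 genes were also called in SORL1-KO against WT, 14 in SORL1-A528T against WT, 7 in both and 16 in neither. The 93 were picked for a difference between these same SORL1 libraries, which favours calls against WT. The share of all genes tested that was called against WT is not given here, so that no excess can be read from these counts. CAT had -4.80 in SORL1-KO against WT and -0.03 in SORL1-A528T against WT (limma, adjusted p = 5.88e-12 and 0.971). MMADHC had -0.88 in SORL1-KO and 0.08 in SORL1-A528T, and SMS had 0.96 in SORL1-KO and 0.14 in SORL1-A528T, with both SORL1-KO values called and neither of the others. A call in SORL1-KO alone does not place SORL1-A528T at the WT level. CLEC10A had -1.53 in SORL1-KO against WT and -0.84 in SORL1-A528T against WT. TNF had -1.05 in SORL1-KO and -0.54 in SORL1-A528T, and for both genes only the SORL1-KO value was called.

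For 7 genes the call against WT was in SORL1-A528T and not in SORL1-KO, namely SLC35A2, PIM2, OTUD5, GRIPAP1, TFE3, SASH3 and TBC1D15. TFE3 had -0.11 in SORL1-KO against WT (limma, adjusted p = 0.197) and 0.73 in SORL1-A528T against WT (limma, adjusted p = 8.08e-07). TBC1D15 had -0.02 in SORL1-KO against WT (limma, adjusted p = 0.928) and -0.89 in SORL1-A528T against WT (limma, adjusted p = 0.00103). All 5 genes of the X run are thus among these, with values against WT of -0.17 to 0.14 in SORL1-KO and 0.56 to 0.99 in SORL1-A528T.

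The calls were also counted over all gene lists. Of 43 lists 14 had at least 1 call, 16 of the 93 called genes belonged to a list and 77 to none. The share of all genes tested that belong to a list is not given here. Neither an excess nor a lack of calls in the lists can therefore be read from these counts. No call was made among 31 Toll-like receptor and NF-kB genes (median -0.04), 29 genes of TYROBP and ITAM signalling (median -0.02), 29 interferon-response genes, 36 subunits of oxidative phosphorylation (median -0.03) or 30 genes of the cell cycle and DNA replication (median -0.05). The interferon-response genes had a median of -0.08, with 25 of 29 below 0, which was -0.28 with all 29 below 0 without pairs 4 and 7, and -0.04 with the stromal score as a covariate. The 37 cytosolic ribosomal protein genes all lay above 0, between 0.02 and 0.13, with none called, and 35 of 37 lay above 0 after quantile normalization. The median over all genes was -0.01, and 56.5% of them lay below 0.

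**Figure D5:**
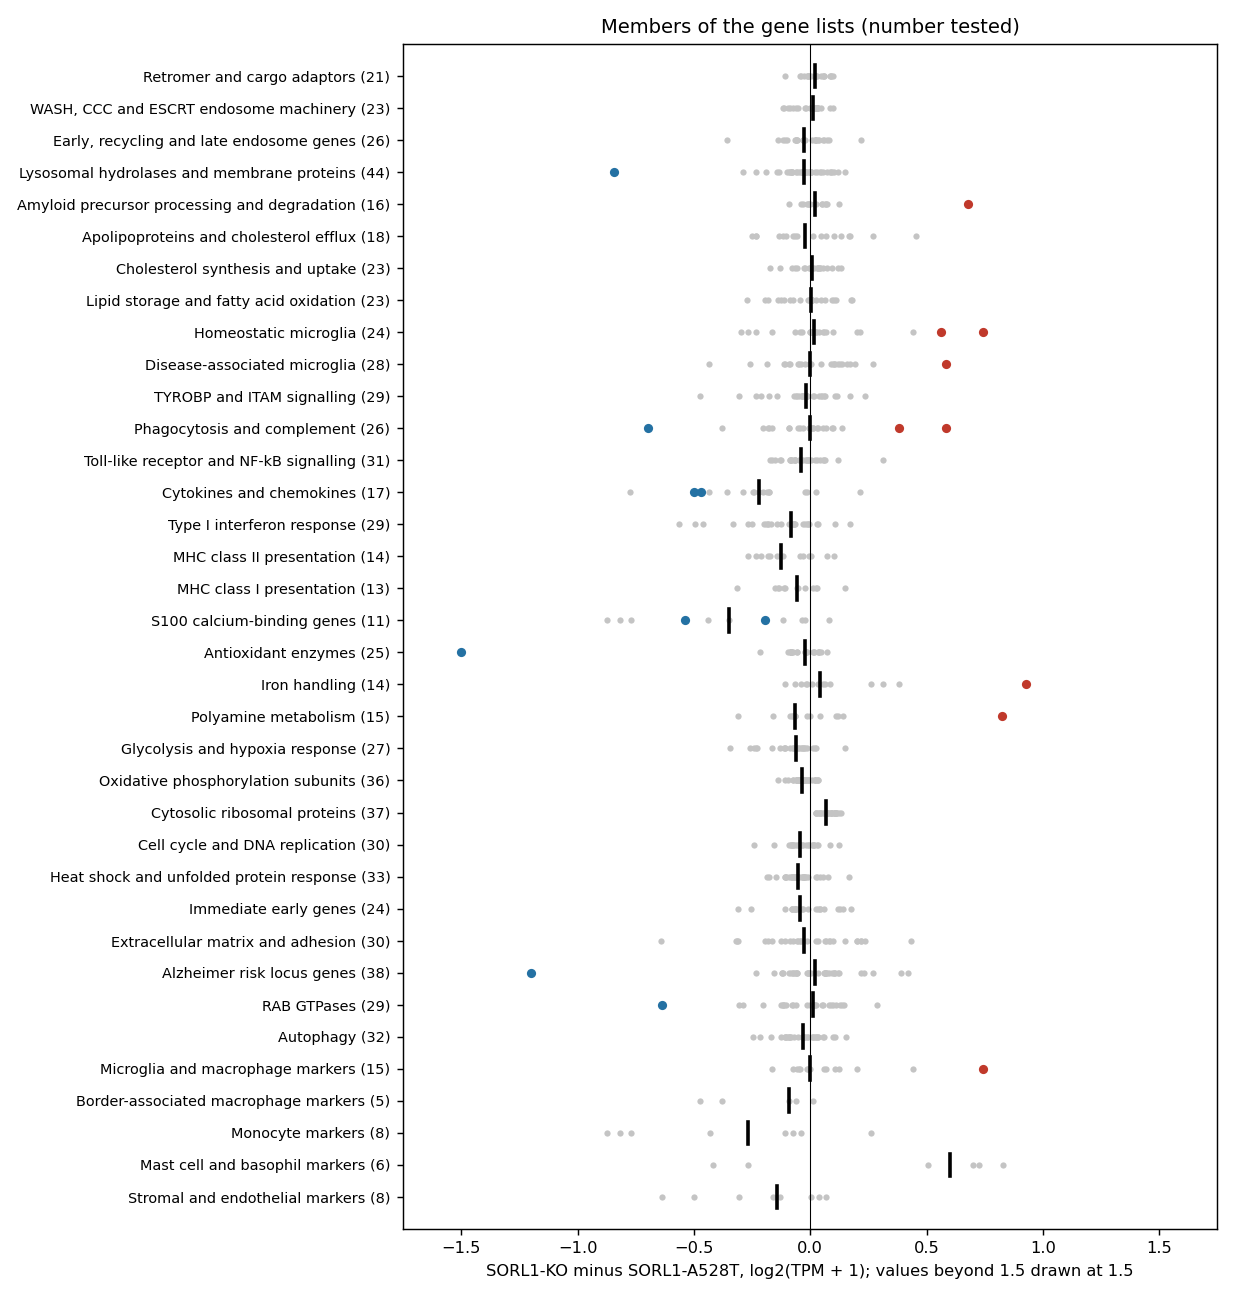
Difference, SORL1-KO minus SORL1-A528T on log2(TPM + 1), for the members of each list with at least 5 genes tested, with the number tested in brackets, black bars for the median, red and blue points for genes called higher and lower, and grey points for genes not called. CAT, at -4.78, is drawn at the end of the clipped scale, and most lists have medians close to 0, with mast cell and basophil markers at 0.60, cytokines at -0.22, monocyte markers at -0.27 and S100 genes at -0.35.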

How the data were processed

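RNA from hMGLs was sequenced as read pairs of 150 bp from directional libraries, per the labels' protocols. The deposited values are TPM, 1 column per library, made by the authors; tools named in the submitters' processing notes are cutadapt 1.18, STAR 2.7, RSEM 1.3.1 and DESeq2. The sources used here do not give the genome build or annotation. TPM keeps no read counts, so that the depth of each library and its counting error are unknown; per the labels' protocols depth averaged 45.13 M, between 39.2 and 64.6 M. Every column summed to between 999999.15 and 1000000.76. TPM is a share of a library, so that a large change in abundant genes can shift all others.

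The test was that of limma (version 3.58.1, under R 4.3.3) on log2(TPM + 1), two-sided, with trended and robust variance, the replicate number as a block and Benjamini-Hochberg adjustment over all 13400 genes. Fold changes on this scale understate the change of genes with low values. Same-numbered libraries of the lines deviated together, with correlations between 0.371 and 0.847 in 7 of 7 pairs, all above the limit of 0.1 set for pairing. However, only 5 of 7 SORL1-KO libraries were closest to the SORL1-A528T library of their own number, and likewise 5 of 7 in the other direction. Passing the limit therefore does not settle whether the numbers mark true pairs. The procedure was also run on simulated data. These took the pair effects as given and drew the libraries independently, so that the run cannot bear on the pairing. Positions are from GENCODE 29 (GRCh38), and 99.5 percent of tested genes had a symbol.

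Named are the edited genes and APOE, the 10 called genes with the largest differences each way (at least 5 TPM in a line and the same direction in at least 6 pairs) and up to 4 called members of each list; the text says where other called genes were added, and uncalled list members it names (such as APOC1, CCL2, S100A8, CPA3, SORT1 and FTH1) were picked with their values known. Some results are left out here. The members and lists were chosen with earlier results of these data known. Alternatives were other pseudocounts, filters, scalings, weights and fits, and leaving out pairs.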

Additional observations from a re-analysis of the deposited data

Results flagged for a closer look

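In 4 of the 68 sets of 7 libraries examined (34 named genes in each line), a library stood far from the others of its line, and chance marks about 1 set in 20. All 4 were replicate 7 of SORL1-A528T. CAT was highest there at 113 TPM, and CFP was highest there at 32.6 TPM. CD33 was lowest there at 25.1 TPM, and SLC2A5 was lowest there at 18.9 TPM. Replicate 7 of SORL1-KO had the lowest CD33 and SLC2A5 and the highest CAT and CFP of its own line as well, at 24.9, 31.8, 2.93 and 21.6 TPM. Without replicate 7 the differences were -4.76 for CAT, -0.72 for CFP, -0.27 for CD33 and 0.54 for SLC2A5.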

How the results depend on the processing

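The number of called genes, 93, moved with the block, the filter on low values, the variance model and the libraries. It was 12 with no replicate block, 16 and 24 in fits of all 40 libraries without and with the block, 20 with no filter on low values, 45 with neither trend nor robust variance and 47 with the stromal score as a covariate beside the block. Leaving out 1 pair gave between 35 and 144 calls. Leaving out pairs 4 and 7 (88) and averaging libraries 5 and 6 (41) were chosen after seeing the data. The other counts were between 71 and 133. SORL1 kept its direction and its call in all 21 alternatives, with -1.28 to -1.04, as did APOE its direction without a call. INPP5D, near 0, ran from -0.0354 to 0.00741 with a pair left out, above 0 without replicate 5 (0.00718) or 6, and was 0.0073 with both averaged; the cause was not tested. The cause of the other moves was not tested either. With no read counts, the depth behind low values cannot be stated.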
